A study of Mus musculus with 3 samples.

Results

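ETO2 occupancy was examined at the 6 genes that encode the GATA transcription factors, Gata1, Gata2 and Gata3, which are best known from blood cells, and Gata4, Gata5 and Gata6, which are best known from the heart and the endoderm. A peak was counted at a gene when its summit lay in the gene body or within 100 kb of it, or when the nearest protein-coding start site was that of the gene. These genes had 10 ETO2 sites of the 3192 in the whole series, a site being 1 peak or overlapping peaks of both replicates. Replicate 1 gave 10 of its 2335 peaks and replicate 2 gave 4 of its 1873 peaks. ChIP-seq was performed in 2 replicates on FLK1+ mesodermal cells from embryoid bodies, cell aggregates in which wild-type mouse embryonic stem cells (C57Bl/6 X Sv129) differentiate. The paper names the wild-type line J1 and gives a cross of these strains only for the mice that supplied embryos. FLK1, a receptor for vascular endothelial growth factor, marks mesoderm with blood and vessel potential. The sample labels and the study's methods give day 4 of differentiation for the ETO2 ChIP, while the design text, which describes separate differentiations, places FLK1+ isolation at day 3.5. Both deposited lists carry the same ChIP name, so how far the replicates are independent could not be checked. Peaks were called against the input in replicate 1 and without an input in replicate 2, so fold enrichments are comparable within a replicate and not between them. Binding and not expression was measured, so the identity of the cells could not be checked against marker genes, and the cultures come from a line grown in vitro.

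GATA factors bind DNA at the sequence WGATAR, which stands for GATA with A or T before it and A or G after it, on either strand. In blood cells GATA1 and GATA2 work beside SCL, LMO2 and LDB1 in a complex that reads an E-box (CANNTG) or its CTG part together with a GATA element, and ETO2 is a co-repressor found in that complex. GATA1 drives red cell and megakaryocyte maturation, GATA2 maintains blood stem and progenitor cells, GATA3 is required for T cells, and GATA4, GATA5 and GATA6 act in the heart and in gut endoderm. The genes control one another, and Gata1 and Gata2 are both known to carry enhancers that GATA factors bind.

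The sequences under the summits are given first, because all 10 sites carried a GATA element. The 3 sites at blood genes that were called in both replicates are shown, followed by 1 site each of Gata3, Gata4 and Gata5 that was called in replicate 1 only. The windows shown all hold CTG with 8 to 10 bases to GATA, so they do not represent every site. Gata2 site 3, Gata4 site 1 and Gata6 lack that pair and are not shown, and neither is Gata2 site 4, which holds it. Each sequence shown is the 100 bp centred on the summit, on the plus strand of mm9, with WGATAR in capitals on whichever strand it reads. Capitals TTATCA and CTATCT are therefore TGATAA and AGATAG on the minus strand.
Gata1 site 1 (chrX:7548561-7548660): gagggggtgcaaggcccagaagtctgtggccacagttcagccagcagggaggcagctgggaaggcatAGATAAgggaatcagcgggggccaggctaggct
Gata2 site 1 (chr6:88140712-88140811): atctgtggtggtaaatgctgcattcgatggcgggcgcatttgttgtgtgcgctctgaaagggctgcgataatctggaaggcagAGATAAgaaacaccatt
Gata2 site 2 (chr6:88153124-88153223): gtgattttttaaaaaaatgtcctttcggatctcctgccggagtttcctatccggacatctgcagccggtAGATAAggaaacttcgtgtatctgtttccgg
Gata3 site 1 (chr2:9827780-9827879): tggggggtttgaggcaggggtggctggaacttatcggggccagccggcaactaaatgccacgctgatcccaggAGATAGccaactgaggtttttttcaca
Gata4 site 2 (chr14:63954059-63954158): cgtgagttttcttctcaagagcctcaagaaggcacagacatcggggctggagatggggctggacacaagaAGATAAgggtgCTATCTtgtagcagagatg
Gata5 site 1 (chr2:180089467-180089566): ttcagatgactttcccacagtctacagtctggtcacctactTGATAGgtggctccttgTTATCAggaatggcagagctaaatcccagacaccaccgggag

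At the blood genes the motif was AGATAA in Gata1 and in both shared Gata2 sites, and AGATAG in Gata3. In Gata2 sites 3 and 4, not shown, it was TGATAA. In the intron of Gata2 (site 2) an E-box, CATCTG, preceded AGATAA on the same strand, with CTG and GATA 9 bases apart. In Gata1 the E-box was CAGCTG, with CTG and GATA 10 bases apart. The Gata5 window held WGATAR in both orientations, and that of Gata4 site 2 held AGATAA and AGATAG. The sequence of the Gata6 site is not shown.

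Every GATA gene had a site, but those of Gata3, Gata4 and Gata5 rested on replicate 1 alone. By the same rule, 27.8% of the 22380 protein-coding genes had a site in either replicate, compared with 6 of the 6 GATA genes. For a replicate 2 peak the share of all genes was 15.9%, and Gata1, Gata2 and Gata6 had a peak (3 of 6). A site called in both replicates was present at these same 3 genes, compared with 11.1% of all genes. Gata2 alone had 2 such sites (1 of 6), and 2.22% of all genes had 2 or more. Of the 10 sites, 4 were called in both replicates, close to the 31.4% of all sites, and 6 in replicate 1 only, compared with 41.7% of all sites. No site was called in replicate 2 only (0 of 10), compared with 26.9% of all sites. The counts are descriptions and carry no test.

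**Figure D1:**
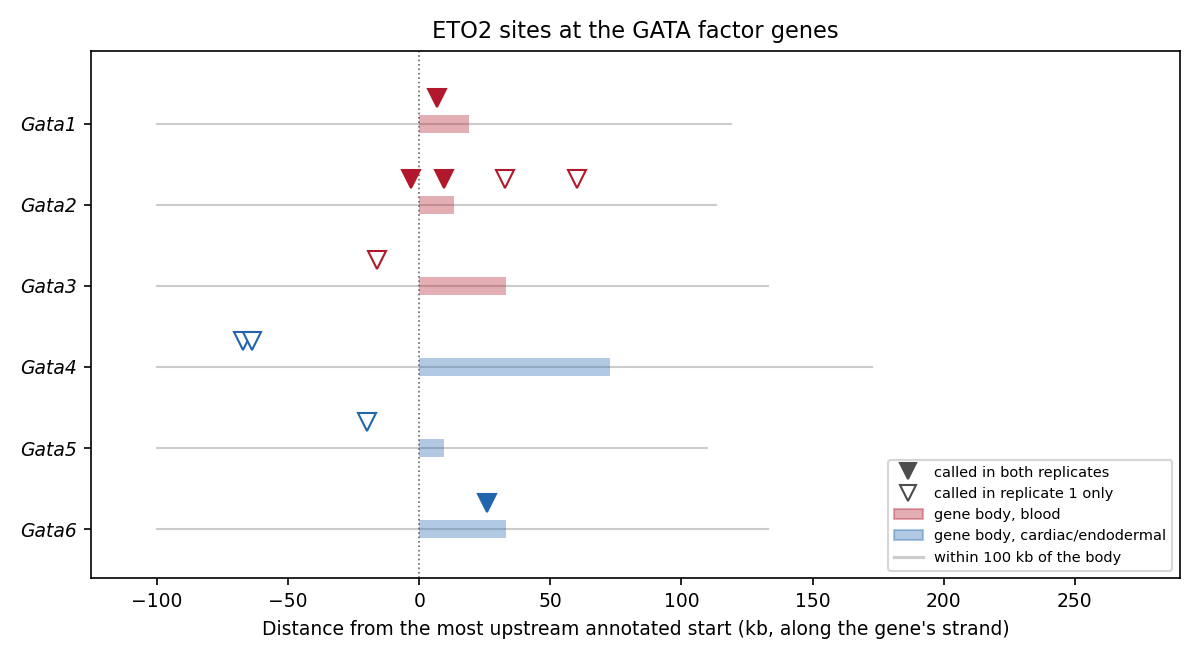
Position of the ETO2 sites of each GATA gene, in kb from its most upstream annotated start along the gene's strand, with the gene body as a bar and the 100 kb on either side as a line. Filled triangles are the 4 sites called in both replicates, at Gata1, Gata2 and Gata6, and open triangles the 6 called in replicate 1 only.

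Between the 2 groups of genes, the blood members had 6 sites and the cardiac and endodermal members 4. Sites called in both replicates numbered 3 at blood genes (1 at Gata1 and 2 at Gata2) and 1 at the others (Gata6). Neither group was uniform, since Gata3 had no shared site while Gata6 had 1. In replicate 1 the fold enrichments of the groups overlapped, as the blood sites ranged from 3.95 to 7.21 (median 5.02) and the cardiac and endodermal sites from 4.55 to 5.84 (median 5.06). In replicate 2 the 3 blood sites ranged from 4.18 to 5.98, and the single site of the other group, at Gata6, had 7.43. Its interval overlapped theirs, and a single peak gives no range for its group. In replicate 1 the same Gata6 site, at 5.11, lay within the range of the blood sites. With 2 libraries and 3 genes a group, no test of this contrast was made. It also depended on the rule, because 3 of the 6 blood sites lay nearest to the start of another gene and only 3 remained when sites were assigned to the nearest start site, whereas the 4 sites of the other group were all nearest to the GATA gene.

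Gata1 (ENSMUSG00000031162.8, chromosome X, 7536386 to 7555197, minus strand) encodes the GATA factor of maturing red cells and megakaryocytes. Its single site lay 3.55 kb upstream of the nearest Gata1 start, in intron 3 of the 4 introns of a longer Gata1 transcript. In replicate 1 the peak (7548497 to 7548729) had 24 fragments at the summit and a fold enrichment of 6.57 (95% Poisson interval 4.28 to 9.67). In replicate 2 (7548520 to 7548684) it had 36 fragments and a fold enrichment of 5.98 (4.23 to 8.21). The site was called with −log10 q of 14.4 in both libraries, where the lowest values of the lists were 1.43 and 1.92, and the summits lay 29 bp apart. It ranked 692 of 2335 and 508 of 1873 by fold enrichment. The local background stood at the lowest value of each list, 4.06 and 5.19 fragments, which is the genome-wide level the caller uses as its minimum. An upstream enhancer active in blood cells is known for Gata1. Whether the site is that element was not tested. The 100 kb around Gata1 hold 12 other protein-coding genes, and no other peak was found there.

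Gata2 (ENSMUSG00000015053.8, chromosome 6, 88143885 to 88157024, plus strand), the GATA factor of blood stem and progenitor cells, had the most sites of the family. Its 4 sites were matched or exceeded by 390 other protein-coding genes. Site 1 lay 3.11 kb upstream of the first start, outside protein-coding genes, with 23 fragments and a fold enrichment of 3.95 (2.55 to 5.87) in replicate 1 (88140645 to 88140896). In replicate 2 (88140659 to 88140894) it had 28 fragments and 4.18 (2.83 to 5.98). It was the weakest of the family in both replicates by fold enrichment. Site 2 lay in intron 4 of 5, 9.29 kb downstream of the first start and 4.52 kb downstream of the second. It had the highest replicate 1 fold enrichment of the family, 7.21 (4.98 to 10.1; 32 fragments; 88153012 to 88153343), and 4.52 (3.17 to 6.26; 34 fragments; 88153057 to 88153287) in replicate 2. Site 2 thus lay above site 1 in both replicates, with overlapping intervals. This intron is known to hold an E-box and GATA enhancer required for blood stem cell formation in the embryo, and the CATCTG and AGATAA printed above are of that form.

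The other Gata2 sites were downstream of the gene and called in replicate 1 only. Site 3 (88176538 to 88176748) lay 19.6 kb beyond the gene and 4.33 kb from the start of Dnajb8, a chaperone gene, with 35 fragments and a fold enrichment of 5.33 (3.75 to 7.37). Its 35 fragments exceeded those of either shared Gata2 site in replicate 1, but the local background was 1.97 times the genome-wide level. Site 4 (88204080 to 88204323) lay 47.2 kb beyond the gene and 31.9 kb from Dnajb8, with 17 fragments, the fewest of the family, and 4.71 (2.83 to 7.42). Both were within the window of Gata2 but nearest to the start of Dnajb8.

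Gata3 (ENSMUSG00000015619.9, chromosome 2, 9778705 to 9811661, minus strand), required for T cells and also active outside blood, had 1 site in replicate 1 only. It lay 16.2 kb upstream of the gene (9827703 to 9827942) and 12.2 kb from the start of Taf3, which encodes a subunit of the basal transcription factor TFIID. The peak had 25 fragments and a fold enrichment of 4.39 (2.89 to 6.43), and its rank was 1650 of 2335. Among the blood members it was thus the gene without a replicate 2 peak and without a site nearest to its own start.

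Gata4 (ENSMUSG00000021944.8, chromosome 14, 63817759 to 63890529, minus strand), an early cardiac regulator, had 2 neighbouring sites far upstream, both in replicate 1 only. Site 1, 67.1 kb upstream of the first start (63957505 to 63957781), had 36 fragments and a fold enrichment of 5.84 (4.12 to 8.03). Site 2, 63.6 kb upstream (63954045 to 63954253), had 22 fragments and 5.01 (3.20 to 7.50). Neither peak was in a protein-coding gene, and Gata4 was the gene with the nearest start.

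Gata5 (ENSMUSG00000015627.4, chromosome 2, 180059838 to 180069404, minus strand), a regulator of endocardium and gut epithelium, had 1 site in replicate 1 only. It lay 20.1 kb upstream (180089412 to 180089952), with 23 fragments and a fold enrichment of 4.55 (2.94 to 6.76). At 541 bp it was the widest peak of the family, the others lying between 165 bp and 332 bp.

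Gata6 (ENSMUSG00000005836.8, chromosome 18, 11052508 to 11085633, plus strand), which acts in heart progenitors and primitive endoderm, was the cardiac and endodermal member called in both replicates. The site lay in the last intron (6 of 6), 25.7 kb downstream of the start, and the summit was the same base in both replicates. It had 45 fragments in replicate 1 and 45 in replicate 2, more than any other site of the family. Its fold enrichment was 5.11 (3.75 to 6.82) in replicate 1 (11078061 to 11078370) and 7.43 (5.46 to 9.89) in replicate 2 (11078123 to 11078344), where it was the highest of the 4 and ranked 257 of 1873. Its local background was 2.71 times the genome-wide level in the input used for replicate 1, the highest of the family, and stood at that level in replicate 2, which had no input. It ranked 1238 of 2335 in replicate 1, with the most fragments and the highest background of the 10 peaks. No other protein-coding gene lay within 100 kb.

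**Figure D2:**
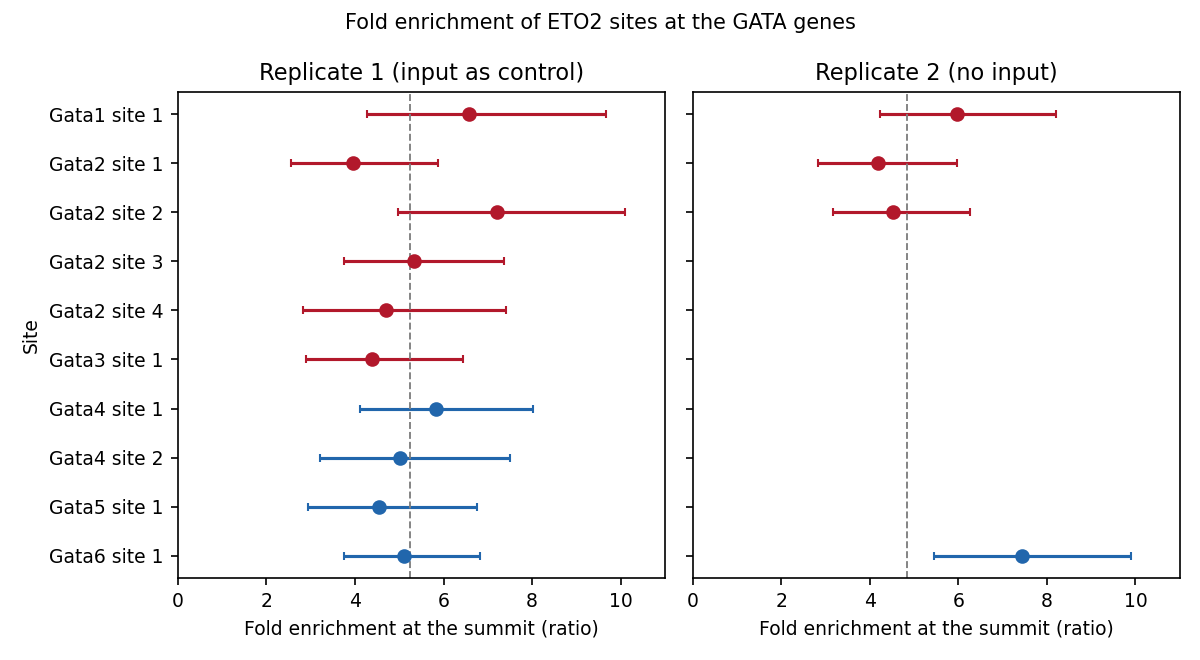
Fold enrichment (ratio to local background) at the summit of each peak of the GATA genes in replicate 1 (left) and replicate 2 (right), with 95% Poisson intervals as bars, blood genes in red, cardiac and endodermal genes in blue, and the median of all peaks of the list as a dashed line. The 10 replicate 1 intervals overlap one another, as do the 4 of replicate 2.

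The intervals did not set the sites in an order of strength, although overlap of intervals is not a test of difference. In replicate 1 the summits had 17 to 45 fragments, and the 10 intervals had the range from 4.98 to 5.87 in common. In replicate 2 they had 28 to 45 fragments, and the 4 intervals had 5.46 to 5.98 in common. Ranks ran from 562 to 1908 of 2335 in replicate 1 and from 257 to 1374 of 1873 in replicate 2. The highest fold enrichments of the GATA sites were 7.21 and 7.43, where the maxima of the lists were 29.5 and 26.1. Gata6 stood at percentile 86.2 of the replicate 2 list. In replicate 1 the medians over all peaks were a fold enrichment of 5.24 and 27 fragments, and in replicate 2 they were 4.85 and 35. Among replicate 1 peaks of sites called in both replicates the median was 6.83, which was exceeded by Gata2 site 2 alone. In replicate 2 that median was 5.38, and Gata1 and Gata6 exceeded it. The sites called in replicate 1 only had 17 to 36 fragments there, and the shared ones 23 to 45, so these ranges overlapped. The fewest fragments of any replicate 2 peak were 18. Intervals cover counting error only, and fragments of the sites that replicate 2 did not call are not known.

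None of the sites was at a promoter. The closest lay 3.11 kb and the farthest 67.1 kb from a start of its GATA gene, and 0 of 10 had the summit within 1 kb of a protein-coding start, compared with 10.4% of all sites. There were 3 sites in introns (Gata1, Gata2 and Gata6), each called in both replicates, whereas of the 7 outside protein-coding genes only Gata2 site 1 was. Over all sites the share called in both replicates was 33.5% inside and 29.8% outside protein-coding genes, and with 10 sites the contrast at the GATA genes is a description only. All 14 summit windows were in unique sequence, with 100% of 24-mers found once in the genome.

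All 10 summit windows held WGATAR, compared with 54.5% of the 3192 sites and 73.0% of those called in both replicates. In the 20 windows of equal length 500 bp to either side it was present in 0, compared with 17.2% of the flanks of all sites. The share was 6 of 6 at blood genes (exact 95% binomial interval 54.1% to 100%) and 4 of 4 at the others (39.8% to 100%), and was read from the more significant peak of each site. These intervals treat the sites as independent. However, 4 of the blood sites belong to Gata2, 2 of the others belong to Gata4, and the genes were chosen by name. The intervals therefore give no spread between genes. At Gata1 the replicate 1 summit lay 29 bp from that of replicate 2, and its own window cut the motif at the edge, so that 83.3% of the blood sites held it by replicate 1 summits. The nearest match was found 1.5 to 42.5 bp from the summit and there was more than 1 match at Gata4 site 2, Gata5 and Gata6.

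The E-box CANNTG was present at 8 of the 10 sites, compared with 45.0% of all sites and 40.5% of flanks. It was absent from both Gata4 windows, so the count was 6 of 6 at blood genes and 2 of 4 at the others. Its form CAGCTG, in 11.3% of all sites, occurred at 3, namely Gata1 and Gata2 sites 3 and 4. CTG with 8 to 10 bases to GATA on the same strand, a spacing chosen on earlier counts of these peaks, occurred at 7 sites (Gata1, Gata2 sites 1, 2 and 4, Gata3, Gata4 site 2 and Gata5), compared with 24.1% of all sites, 37.1% of those called in both and 2.73% of flanks. Gata6 lacked this pair. The ETS core AGGAA was present at 4 sites, close to the 41.2% of all sites. A match describes letters in the window, and the E-box and the CTG and GATA pair can share bases with each other and with WGATAR.

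**Figure D3:**
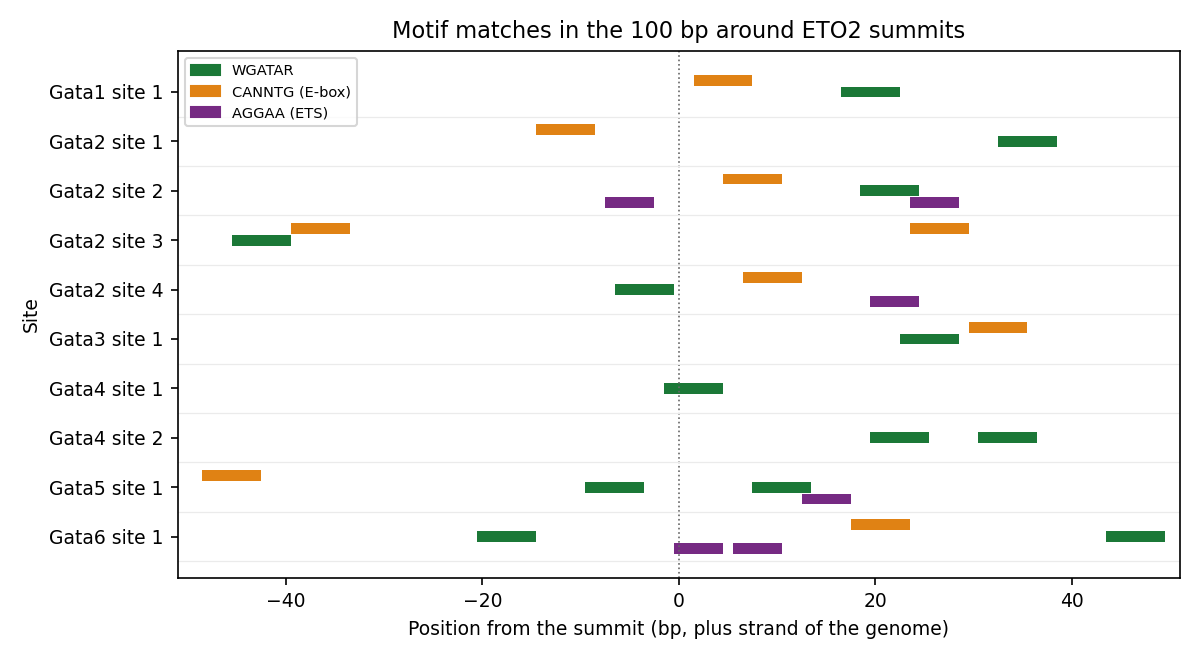
Matches to WGATAR, CANNTG and AGGAA on either strand in the 100 bp around the summit of each site, in bp from the summit along the plus strand. Every site has a WGATAR match, and the 2 Gata4 sites have no CANNTG match.

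Where the limit fell mattered at Gata1 and Gata4. The farthest site counted was Gata4 site 1, 67.1 kb from the gene body. The nearest site left out lay 107 kb from Gata1 and 5.50 kb from the start of Was, which encodes the Wiskott-Aldrich syndrome actin regulator of blood cells, with fold enrichments of 6.57 (4.28 to 9.67) and 4.20 (2.78 to 6.12), and only 61.0% and 75.3% of 24-mers in its summit windows were unique. A stronger one lay 137 kb beyond Gata4 (63681062 to 63681408), 12.4 kb from the start of the defensin gene Defb30. It had 45 fragments and a fold enrichment of 12.1 (8.91 to 16.2) in replicate 1, and 58 fragments and 8.99 (6.86 to 11.6) in replicate 2, above every counted GATA site in either replicate. Both were called in both replicates and were not counted. The remaining one lay 124 kb from Gata1 (7679420 to 7679712), nearest to Was, and was called in replicate 2 only, with 29 fragments, a fold enrichment of 4.85 (3.30 to 6.89) and no WGATAR in its window. With a limit of 150 kb, chosen after seeing the data, the blood sites therefore rose from 6 to 8, and neither the absence of sites called in replicate 2 only nor a WGATAR at every site would hold.

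**Figure D4:**
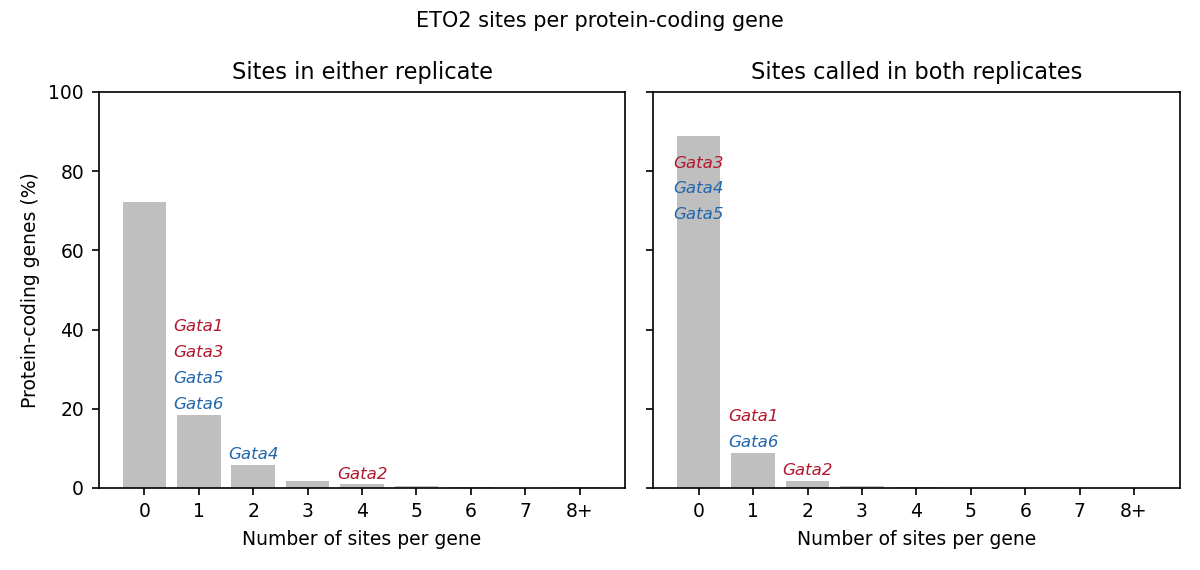
Share of all 22380 protein-coding genes (%) by number of sites per gene under the same rule, in either replicate (left) and in both replicates (right), with the GATA genes written at their own numbers. Gata2 stands at 4 and 2 sites, and Gata3, Gata4 and Gata5 stand at 0 in the right panel.

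Other regulators of the same tissues were set beside the GATA genes by the same rule. Of 10 blood partners and regulators, 6 had a site called in both replicates (Zfpm1, Tal1, Lmo2, Lyl1, Runx1 and Gfi1b). Spi1, which encodes PU.1, had a replicate 1 peak only (3.98), and Ldb1, Tcf3 and Klf1 had no peak, these 4 being named after their values were seen. Zfpm1, which encodes the GATA1 cofactor FOG1, had 8 sites, 6 of them shared, with a strongest replicate 1 fold enrichment of 22.7. Tal1, which encodes SCL, had 3 sites with 26.8 as the strongest, and Runx1 had 10 with 15.0. These values lie above the 7.21 of the strongest GATA site. Of 10 cardiac partners and regulators, 2 had a shared site, namely Hand1 (9.53 in replicate 1 and 6.36 in replicate 2) and Tbx20 (7.27 and 4.77), both transcription factors of the developing heart. Zfpm2 (FOG2, the GATA4 cofactor), Nkx2-5 and Tbx5 had peaks in replicate 1 only, with strongest values of 5.75, 5.06 and 5.89, as had Gata4 and Gata5, and were likewise named after their values were seen. Of 8 endodermal regulators, 2 had a shared site, namely Sox17 (6.33 and 2.94) and Sox7 (8.51 and 8.75), which also act in vessels. The background for these counts is the 11.1% of all genes given above, and the differences between the lists were not tested.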

How the data were processed

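ChIP-seq for ETO2 was performed on 2 samples with 1 input. The authors aligned reads to mm9 with Bowtie, dropped duplicates and ran MACS2 (2.0.10) for peak calling, per the study's methods and processing notes. For each peak the authors deposited the summit's fold enrichment (the ratio of fragments to local background, after adding a pseudocount), the p-value and q-value as −log10, and a score that restates the q-value. These values were used as given, and no expression or input values were analysed. A further list of positions was not used.

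Summit fragments and local background were solved from the fold enrichment and the p-value under a Poisson model. They matched the p-values of 100% of peaks within 0.01 in −log10 p, with replicate 1 fragments multiplied by 1.34 before the ratio to background. Fragments of replicate 1 are given before this scaling and its background after it. Replicate 1 peaks had 12 to 206 fragments and replicate 2 peaks 18 to 236. All chromosome names were in the reference (mm9, GENCODE M1), and no peak ended beyond a chromosome. Replicate peaks overlapping by 1 bp formed a site. Start sites were those of protein-coding transcripts. The motif search covered either strand of the 100 bp around the summit of the peak with the lower q-value. Recovery and motif search were tested on simulated data. Python 3.11.15, numpy 2.4.6, pandas 2.3.3, scipy 1.17.1 and numba 0.67.0 were used.

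The genes and lists were chosen with earlier results of these data known. All 6 GATA genes and all their sites are named, with genes nearest to a site, genes of 3 lists (28 genes, Spi1 found as Sfpi1) and the 3 genes of most like pattern, which for Gata1 are not reported here. No test over genes or sites was made. Alternatives varied the distance, the peak threshold, the overlap, repeated sequence, the motif and the window, and left out each replicate.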

Additional observations from a re-analysis of the deposited data

How the results depend on the processing

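No paired analysis was possible because both ChIP libraries belong to a single group and no result comes from a test. Restricting peaks to a fold enrichment of 5 or more lowered the blood sites from 6 to 3 and those called in both replicates from 3 to 1. At the cardiac and endodermal genes it lowered the sites from 4 to 3 and left 1 called in both replicates. The 2 groups thus had equal counts at this setting. Assignment to the nearest start site alone left 3 blood sites. When either replicate was left out, the number of sites ranged from 3 to 6 at blood genes and from 1 to 4 at cardiac and endodermal genes, the lower values being those without replicate 1. A limit of 150 kb, chosen after seeing the data, raised the sites called in both replicates from 1 to 2 at cardiac and endodermal genes and from 3 to 4 at blood genes. Each of these settings counts fewer or more peaks at the genes. The fold enrichment limit removed Gata2 site 1 (3.95 and 4.18), Gata2 site 4 (4.71), Gata3 (4.39) and Gata5 (4.55). It also removed the replicate 2 peak of Gata2 site 2 (4.52). Assignment to the nearest start site removed the sites nearest to Dnajb8 and Taf3. Why replicate 2 called fewer of the sites was not tested. Of the 44 alternative values, 38 stayed within 1.5 times the count or within the interval of the share. The intervals of the shares are wide (54.1% to 100% and 39.8% to 100%), so only a large drop would fall outside them. The tally is therefore a weak measure for the shares. The intervals of fold enrichment overlap within each replicate, and differences between sites were not tested. The number of fragments at sites that replicate 2 did not call is unknown.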

Other observations

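Genes of most like ETO2 pattern were sought by the Euclidean distance over 5 values in the 2 libraries, namely the numbers of peaks in each replicate and of sites in both, and log2 of the strongest fold enrichment in each. For Gata2, 5 genes were equally near (distance 0.0813), the first by name being Agrp, Atp6v0d1 and Fam65a. Each of these had 4 replicate 1 peaks, 2 replicate 2 peaks and 2 shared sites, with strongest fold enrichments of 7.60 and 4.60. For Gata6, 6 genes were equally near (distance 0.0951), the first by name being 0610009D07Rik, Atad2b and BC068281, with 4.86 and 7.13. For Gata4 they were Capn7 and Dnahc1 (distance 0.00377) and Ints9 (0.00464), with 2 replicate 1 peaks each. For the genes with a single replicate 1 peak the measure separated little: 20 genes were equally near to Gata3 (the first by name being 1700019B03Rik, Arhgef18 and Arntl, distance 0.000420) and 23 to Gata5 (Aldh1a3, Amac1 and Atp1b2, distance 0). Genes at equal distance can share a peak with each other.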
